A study of Mus musculus with 12 samples.

Results

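Integrins and other adhesion receptors were examined in macrophages sorted from mouse pancreatic tumors and from normal pancreas. The set holds 42 genes, chosen by gene name: 24 integrin chains, 7 adhesion molecules of the immunoglobulin family, 4 selectin-related genes and sialomucins including Cd44, Cd47 with 3 tetraspanins, and 3 cytoplasmic adaptors of integrins. All 42 were among the 27274 genes named on the array, with 68 probes in all. Each gene was read from its brightest probe, and its other probes served as a check.

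RNA was measured on 12 single-color arrays, 6 of tumor macrophages and 6 of normal pancreas macrophages. The labels give female C57/B6 mice of 4 to 5 months for both groups and state no genotype. The series names wild-type, KPC and FLT3-CRE/LSL-YFP mice as sources of normal or tumor tissue, whereas the treatment text speaks of implanted tumors. Neither says which mice gave which array, or which surface markers the sort used. In each group 2 arrays on different slides carry the same sample name, namely tumor replicates 4 and 6 and normal replicates 2 and 3. They were averaged, so each group had 5 samples. Nothing in the labels ties the sample names to separate mice. The p-values therefore rest on the variation among these 10 samples, part of which may be technical.

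Integrins are pairs of one alpha and one beta chain that span the cell membrane and hold a cell to matrix proteins or to receptors on other cells. In leukocytes the chain Itgb2 pairs with Itgal, Itgam, Itgax or Itgad, whereas Itgb1 pairs with many alpha chains that bind collagen, laminin or fibronectin. Talin and kindlin bind the beta chain inside the cell and switch the pair to its high-affinity form. Selectins and their ligands slow leukocytes on the vessel wall before integrins arrest them, and Icam1 and Vcam1 are the counter-receptors used for that arrest.

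Signals are given as log2 values relative to the 75th percentile of each array, so 0 is the level of that percentile and 1 unit is a doubling. They compare a gene between samples, never one probe with another. A gene was tested when at least 3 arrays of the 6 in one of the groups read its probe well above background, which 35 of the 42 genes met. Values by sample follow the order replicate 1, 2, 3, 4 with 6, and 5 for tumor, and replicate 1, 2 with 3, 4, 5 and 6 for normal.

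The sorted cells carried macrophage transcripts in both groups. All 16 macrophage identity genes were well above background on every array, and their share of the signal, summed over tested genes, was 0.468% to 0.595% on tumor arrays and 0.290% to 0.666% on normal arrays. Transcripts of acinar cells, the enzyme-secreting cells of the pancreas, made up 0.00527% to 0.148% on tumor arrays and 0.391% to 2.69% on normal arrays, with the highest shares on normal replicates 2 and 3. Of 14 acinar genes, 13 were lower in tumor at an adjusted p under 0.05. The 75th percentile of the signal was also lowest on normal replicates 2 and 3 (398 and 430.2, against 863 to 1547 on the other normal arrays and 1091 to 1398 on tumor arrays). The sample made from those 2 arrays was the highest or the lowest normal sample for 23 of the 35 genes. The part of acinar RNA and of this sample in the differences below was not tested, beyond the values given without it. In sorted pools, a change in the cells that express a gene cannot be told apart from a change in RNA per cell.

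None of the 35 tested genes passed limma's test at an adjusted p under 0.05, against 136 of 16388 genes tested (0.830%), of which 52 were higher in tumor (0.317%) and 84 lower (0.513%). At an unadjusted p under 0.05 there were 7 of 35, or 20%, against 12.9% of all genes. Itgax, Itgae and Fermt3 were the 3 higher in tumor (6.69% of all genes), and Itga9, Vcam1, Cd81 and Cd82 the 4 lower (6.25%). The samples of the groups did not overlap for 3 genes (8.57%), Itgax, Cd81 and Cd82, against 3.44% of all genes (1.77% with tumor higher, as Itgax, and 1.67% with tumor lower, as the other two). The median log2 difference, tumor minus normal, was -0.06 over the 35 genes and -0.0031 over all genes tested, with 15 of the 35 genes above 0 (42.9%), against 49.7% of all genes, and 20 below.

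The test left room for sizeable differences. The median standard error over all genes tested was 0.36 on the log2 scale. For 10 genes the 95% interval of the difference, by the brightest probe, lay within 1 log2 unit of 0 on either side. A doubling or a halving was outside that interval for Itga5, Itgal, Itgb1, Itgb2, Itgb5, Alcam, Cd44, Cd47, Tln1 and Vcl. Other probes could be less precise, as for Vcl (0.91 ± 0.72, SE) and Cd44 (-0.03 ± 0.64). For the other 25 genes the interval reached past 1 unit on at least one side, and it was widest for Pecam1 (-1.73 to 2.32).

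**Figure D1:**
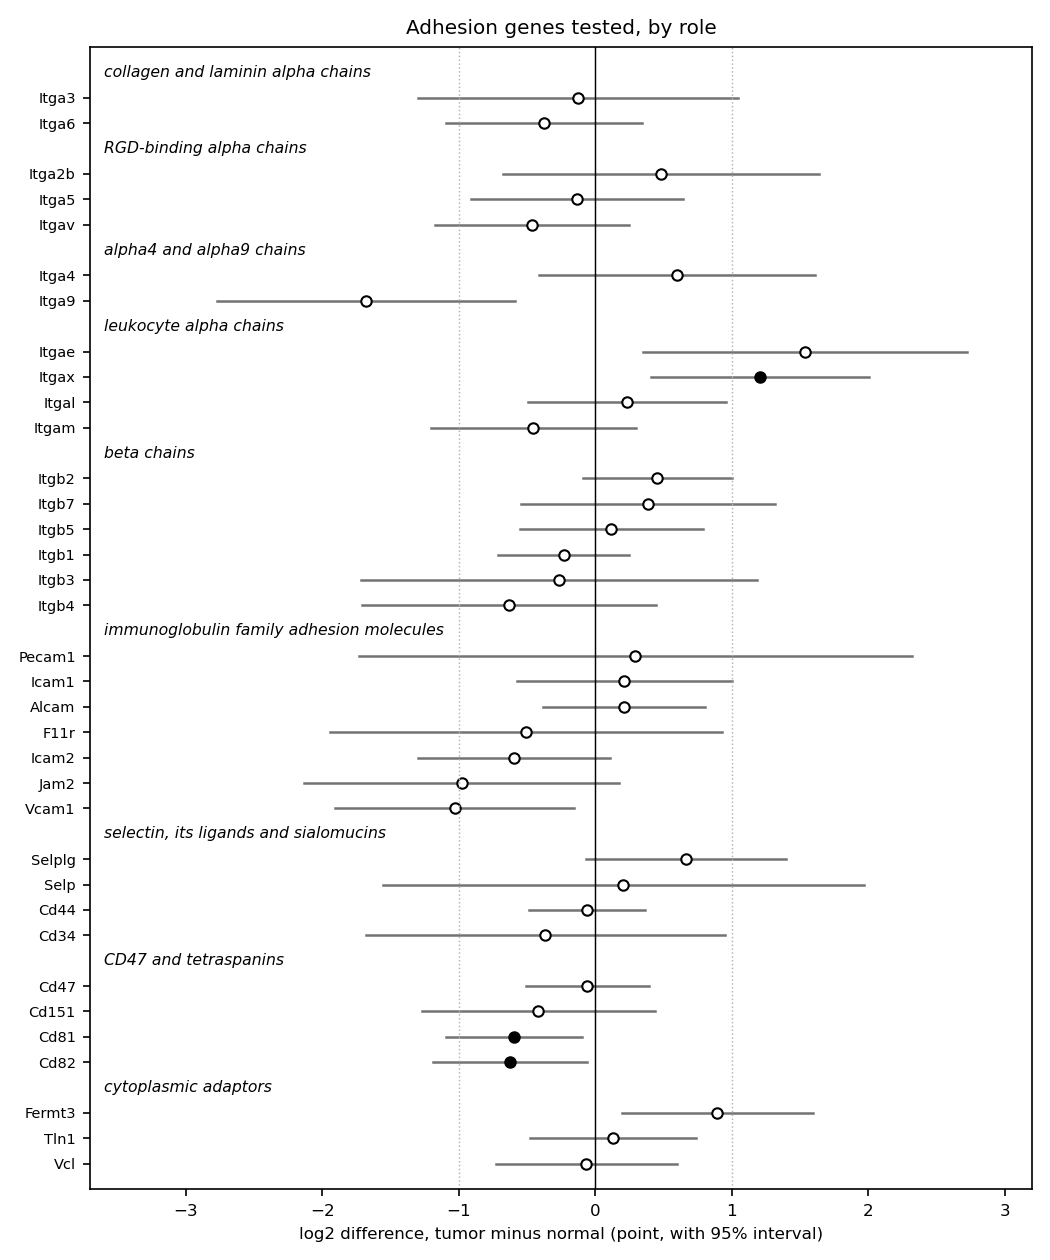
Log2 difference, tumor minus normal, of the 35 tested adhesion genes with 95% intervals, grouped by role, with dotted lines at 1 unit either side of 0 and filled points where the samples of the groups did not overlap. Itgax, Itgae and Fermt3 lie to the right of 0 with their whole interval, and Itga9, Vcam1, Cd81 and Cd82 to the left, but none passed the test over all genes.

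Of the 4 leukocyte alpha chains tested, Itgax and Itgae were higher in tumor, and Itgal was higher by less than its standard error. Itgam was lower by its brightest probe. Itgal, Itgam, Itgax and Itgad lie in one stretch of chromosome 7, where the array annotation places their probes at 134477160, 135261755, 135294052 and 135348901 (mm9). That annotation gives no exon or intron.

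Itgax encodes CD11c, a chain carried by dendritic cells and many tissue macrophages. It read 2.89, 2.43, 1.53, 1.60 and 3.35 in tumor samples, against 1.44, 0.98, 0.85, 1.05 and 1.43 in normal samples. Every tumor sample was above every normal sample, although the lowest tumor sample was only just above the highest normal ones. The means were 2.36 ± 0.79 in tumor and 1.15 ± 0.27 in normal (SD, n = 5 each), and the difference was 1.21 ± 0.36 (SE) with a limma adjusted p of 0.191. The spread was wider in tumor, where replicates 3 and 4 with 6 sat near the normal level. Leaving out any 1 sample gave differences between 0.96 and 1.42.

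Itgae encodes CD103, which pairs with Itgb7 and binds E-cadherin, and which marks some dendritic cells and T cells of epithelia. It read -0.38, -1.92, -0.28, -0.65 and 0.02 in tumor samples, against -3.19, -0.70, -2.19, -3.27 and -1.52 in normal samples. Tumor replicate 2 lay below 2 normal samples, and the other 4 tumor samples were above every normal one. The probe was well above background on all 6 tumor arrays and on 4 normal arrays, and the difference was 1.53 ± 0.54 (SE), adjusted p = 0.261. With normexp background correction it was 0.65. Its partner Itgb7 was higher by 0.39 ± 0.42, adjusted p = 0.730, and by 0.042 without normal replicate 4, the lowest sample at 1.46.

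Dendritic cells express both genes as well. The 10 dendritic markers made up 0.0446% to 0.149% of the signal on tumor arrays and 0.0560% to 0.0739% on normal arrays. Siglech and Fscn1 were the largest parts of that sum, and Xcr1 and Clec9a fell below the detection rule. The share was lowest on tumor replicate 3, where Itgax read 1.53 and Itgae -0.28. It was highest on tumor replicate 1 (0.149%), where Itgax read 2.89 and Itgae -0.38. On tumor replicate 2 it was 0.0957%, with Itgax at 2.43 and Itgae at -1.92. On tumor replicate 5 it was 0.118%, with Itgax at 3.35 and Itgae at 0.02. On tumor replicates 4 and 6 it was 0.113% and 0.123%, and Itgax read 1.60 and Itgae -0.65 in the sample made from them. Of the 8 dendritic markers tested, 6 were higher in tumor and none passed the test. The 3 with an unadjusted p under 0.05, Ccr7, Fscn1 and Dpp4, were all higher. The part of dendritic cell RNA in Itgax and Itgae was not tested.

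The probes of Itgae (11, 72945236 to 72946221) and Itgax (7, 135294052 to 135294111, both mm9 and forward strand) are shown as the 2 leukocyte alpha chains with an unadjusted p under 0.05. The span of the Itgae probe, 986 bases for a 60-base probe, means that its bases lie in separate pieces of the genome. The first 30 bases are given for Itgax.
Itgae: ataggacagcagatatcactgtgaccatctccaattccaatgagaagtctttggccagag
Itgax: tcccatctacttttgcaacgttggaattga

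Itgam encodes CD11b, the alpha chain of complement receptor CR3 and a common sort marker of myeloid cells. Its probes did not give one answer. By the brightest probe it read 7.77, 8.04, 7.33, 7.95 and 7.89 in tumor samples, against 8.19, 9.23, 8.04, 8.54 and 7.26 in normal samples, a difference of -0.46 ± 0.34 (SE), adjusted p = 0.602. By the probe at 135212140 to 135212199 on chromosome 7 it read 5.78, 6.03, 5.58, 5.66 and 5.03 in tumor, against 5.49, 4.55, 5.00, 5.03 and 4.94 in normal, and the difference had the opposite sign, 0.61 ± 0.25 (SE). The probe at 135260275 to 135260334 gave 0.45 ± 0.27. Averaged, these 2 probes put Itgam at 4.47 ± 0.37 in tumor and 3.94 ± 0.36 in normal (SD, n = 5 each), higher in tumor by 0.53 ± 0.26 (SE) with a limma adjusted p of 0.418, a choice made after the values were seen.

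The brightest Itgam probe (7, 135261755 to 135261814, mm9, forward strand) begins with a run of 10 CA units. The 3 sequences are shown because, of the 3, only the brightest probe holds that run, given in capitals. Its first 30 bases are given.
Itgam, brightest: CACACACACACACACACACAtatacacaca
Itgam, second: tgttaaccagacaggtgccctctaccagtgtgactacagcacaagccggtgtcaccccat
Itgam, last: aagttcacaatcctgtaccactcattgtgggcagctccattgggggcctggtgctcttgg

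A run of at least 10 CA units, searched on the probe strand, stood in 22 of 39429 probes (0.0558%). All 22 were well above background on all 12 arrays, against 33.9% of all probes, and their median signal was 301229, against 171 for all probes. The Itgam probe had a mean signal of 274232, with 71 probes brighter. The other 21 probes with the run belong to no gene of the set, and all 21 were lower in tumor, with a median difference of -0.43. Their median by sample was 7.90, 8.27, 7.62, 8.10 and 8.02 in tumor, against 8.39, 9.32, 8.34, 8.54 and 7.46 in normal. The brightest Itgam probe had the same highest and lowest sample as that median in either group. The value of Itgam from this probe thus moved with other probes that share the run, and no direction is given for the gene.

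**Figure D2:**
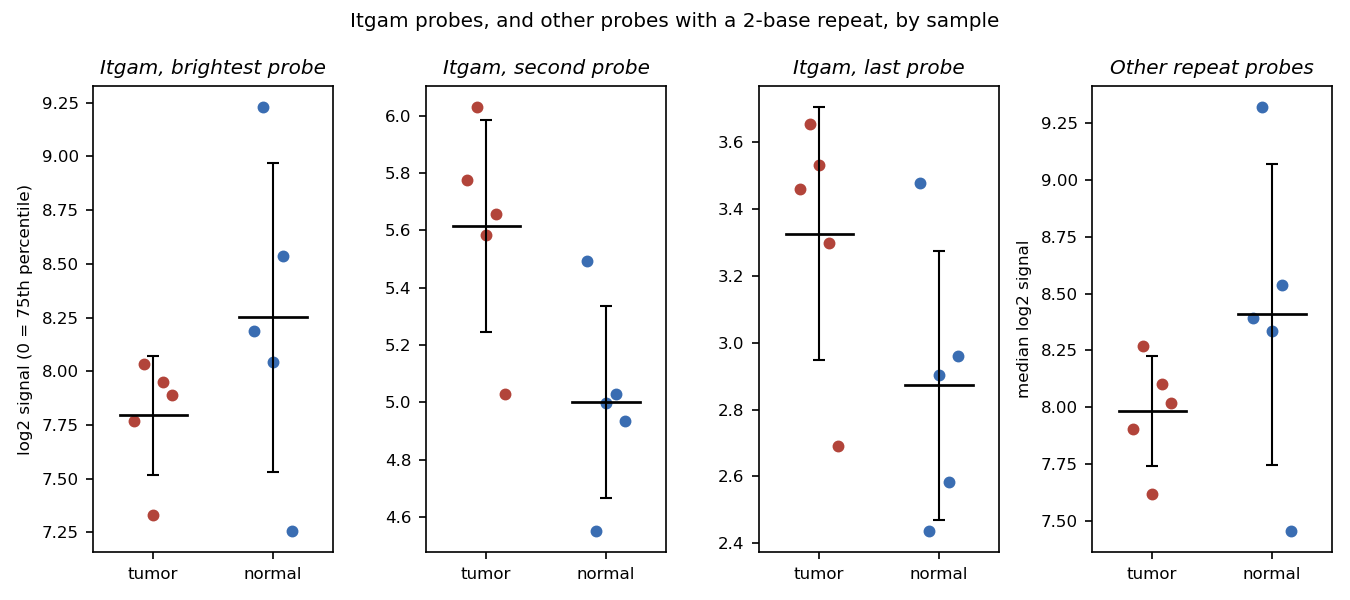
Log2 signal by sample of the 3 Itgam probes and, at the right, the median of 21 other probes that share the 2-base repeat of the brightest one; lines and bars are mean and SD (n = 5 tumor, left, and 5 normal, right). The brightest probe and the repeat median both have their highest sample in normal at over 9, whereas the other 2 Itgam probes lie higher in tumor.

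Itgal, the chain of LFA-1 that binds Icam1, was higher by 0.23 ± 0.33, and by 0.01 ± 0.37 by its second probe. Itgb2, the chain shared by these receptors, was higher by 0.45 ± 0.25 (adjusted p = 0.475). Itgb2 read 6.04, 6.13, 5.44, 5.75 and 5.60 in tumor samples, against 5.91, 4.88, 5.16, 5.34 and 5.40 in normal samples. All tumor samples were above 4 of the 5 normal ones, and normal replicate 1 lay inside the tumor range. Itgad, the remaining partner of Itgb2, was well above background on 0 tumor arrays and 1 normal array and was not tested.

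Itga9 had the largest difference of all 35 genes. Its product pairs with Itgb1 and binds tenascin, osteopontin and Vcam1. It read -0.32, -2.56, -1.28, -0.03 and -1.64 in tumor samples, against 0.24, -0.25, 1.49, 0.42 and 0.68 in normal samples. The means were -1.16 ± 1.02 in tumor and 0.51 ± 0.64 in normal (SD, n = 5 each), and the difference was -1.68 ± 0.49 (SE), with a limma adjusted p of 0.181. Only the sample from tumor replicates 4 and 6 reached into the normal range. Itga4, the other chain of this kind and a chain of the receptor VLA-4, lay the other way at 0.60 ± 0.46. Its lowest sample was normal replicates 2 and 3 at -1.81, where neither array read the probe well above background. Without that sample the difference of Itga4 was 0.19.

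Vcam1, a ligand of both Itga4 and Itga9 found on activated endothelium and on some resident macrophages, was lower in tumor by the second largest amount. It read 0.10, -1.45, -0.28, -1.43 and -0.75 in tumor samples, against 0.38, 1.28, -0.39, 0.12 and -0.04 in normal samples. The groups overlapped, with tumor replicate 1 above 2 normal samples. The difference was -1.03 ± 0.40 (SE), adjusted p = 0.310, and it ranged from -1.25 to -0.78 when 1 sample was left out.

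Jam2, a junctional molecule of endothelium that binds Itga4 with Itgb1, read 0.01, 0.49, 0.36, -1.08 and -0.16 in tumor samples, against 1.11, 2.55, 1.03, 0.34 and -0.52 in normal samples. The highest value was that of normal replicates 2 and 3, and the difference of -0.98 ± 0.52 (SE), adjusted p = 0.466, was -0.57 without it. The second probe gave -0.05 ± 0.34. Icam2, an endothelial and leukocyte ligand of LFA-1, differed by -0.60 ± 0.32, and Icam1 by 0.21 ± 0.36.

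F11r, also called JAM-A, stood at 3.68 in normal replicate 1 and between -0.23 and 1.06 in the other normal samples, against -0.04 to 1.19 in tumor. Its difference was -0.51 ± 0.65 with that sample and 0.15 without it. Pecam1, or CD31, was well above background on 4 arrays of either group and ranged from -3.57 to -0.86 in tumor and from -5.06 to -0.32 in normal. Its difference was 0.29 ± 0.92 (SE). Alcam, the ligand of CD6, differed by 0.21 ± 0.27.

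Most endothelial markers tested lay lower in tumor, although the shares of the groups overlapped. The 12 endothelial markers made up 0.0039% to 0.00816% of the signal on tumor arrays and 0.00546% to 0.0175% on normal arrays, with the highest value on normal replicate 3. Normal replicates 1, 4 and 6, at 0.00546%, 0.00656% and 0.00641%, lay within the tumor range. Of 11 tested, 9 were lower in tumor and none passed the test, 4 having an unadjusted p under 0.05, with a median of -0.80. Their part in Vcam1, Jam2, Icam2 and Pecam1 was not tested.

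The probes of Vcam1 (3, 115828953 to 115829012, reverse strand) and Jam2 (16, 84816558 to 84816617, forward strand, both mm9) are shown as the 2 counter-receptors with the largest differences.
Vcam1: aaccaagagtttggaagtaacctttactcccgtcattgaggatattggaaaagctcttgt
Jam2: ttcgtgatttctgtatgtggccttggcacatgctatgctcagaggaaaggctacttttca

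The tetraspanins are membrane proteins that cluster integrins and other receptors. The 3 of the set were lower in tumor, and none passed the test. Cd81 read 3.82, 3.50, 3.36, 3.73 and 3.77 in tumor samples, against 4.02, 4.05, 4.82, 4.26 and 4.00 in normal samples. Cd82 read 4.40, 3.84, 3.19, 4.01 and 4.37 in tumor samples, against 4.56, 4.67, 4.55, 4.74 and 4.42 in normal samples. In both, every tumor sample was below every normal sample, by a narrow margin in Cd82.

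The difference was -0.60 ± 0.23 (SE) for Cd81, adjusted p = 0.306, and -0.63 ± 0.26 for Cd82, adjusted p = 0.338. Both other Cd82 probes were also lower in tumor, at -0.33 ± 0.23 and -0.34 ± 0.29, and their groups overlapped. Cd151, the partner of laminin-binding integrins, differed by -0.42 ± 0.39 and was highest in normal replicates 2 and 3 at 5.59, without which the difference was -0.14. Of 4 other tetraspanins in the pathway lists, Cd53 and Cd9 were higher in tumor, by 0.59 ± 0.23 (limma adjusted p = 0.322) and 0.48 ± 0.42, and Cd37 and Cd63 lower, at -0.62 ± 0.29 and -0.15 ± 0.27. None of the 4 passed the test. Cd47, the ligand of Sirpa and a partner of Itgav with Itgb3, differed by -0.06 ± 0.20.

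Among the adaptors, Fermt3 stood on the tumor side. It encodes kindlin-3, the kindlin of blood cells, which integrin activation in leukocytes requires. It read 2.08, 1.36, 1.22, 1.21 and 0.94 in tumor samples, against 1.03, -0.28, 0.05, 0.75 and 0.80 in normal samples. Only tumor replicate 5 lay inside the normal range. The difference was 0.89 ± 0.32 (SE), adjusted p = 0.268. Tln1, or talin, differed by 0.13 ± 0.28, and Vcl, or vinculin, by -0.06 ± 0.30 by its brightest probe and 0.91 ± 0.72 by the other.

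Neutrophils also express Fermt3, Itgb2, Selplg and Fgr. The 12 neutrophil markers made up 0.0208% to 0.0278% of the signal on tumor arrays and 0.0134% to 0.0219% on normal arrays. Csf3r was the largest part of that sum, with means of 4.34 in tumor and 4.33 in normal. Of 10 tested, 8 were above 0 and 2 below, with a median difference of 1.37, and 4 of the higher and 1 of the lower had an unadjusted p under 0.05. Retnlg passed the test, at 4.34 ± 0.78 (SE), adjusted p = 0.0331, with the probe well above background on 6 tumor arrays and 2 normal arrays, and Elane was above background on no array. Their part in Fermt3, Itgb2, Selplg and Fgr was not tested.

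The probe of Fermt3 (19, 7074257 to 7076292, reverse strand, mm9) spans 2036 bases and so lies in separate pieces of the genome.
Fermt3: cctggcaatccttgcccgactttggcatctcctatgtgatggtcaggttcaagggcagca

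**Figure D3:**
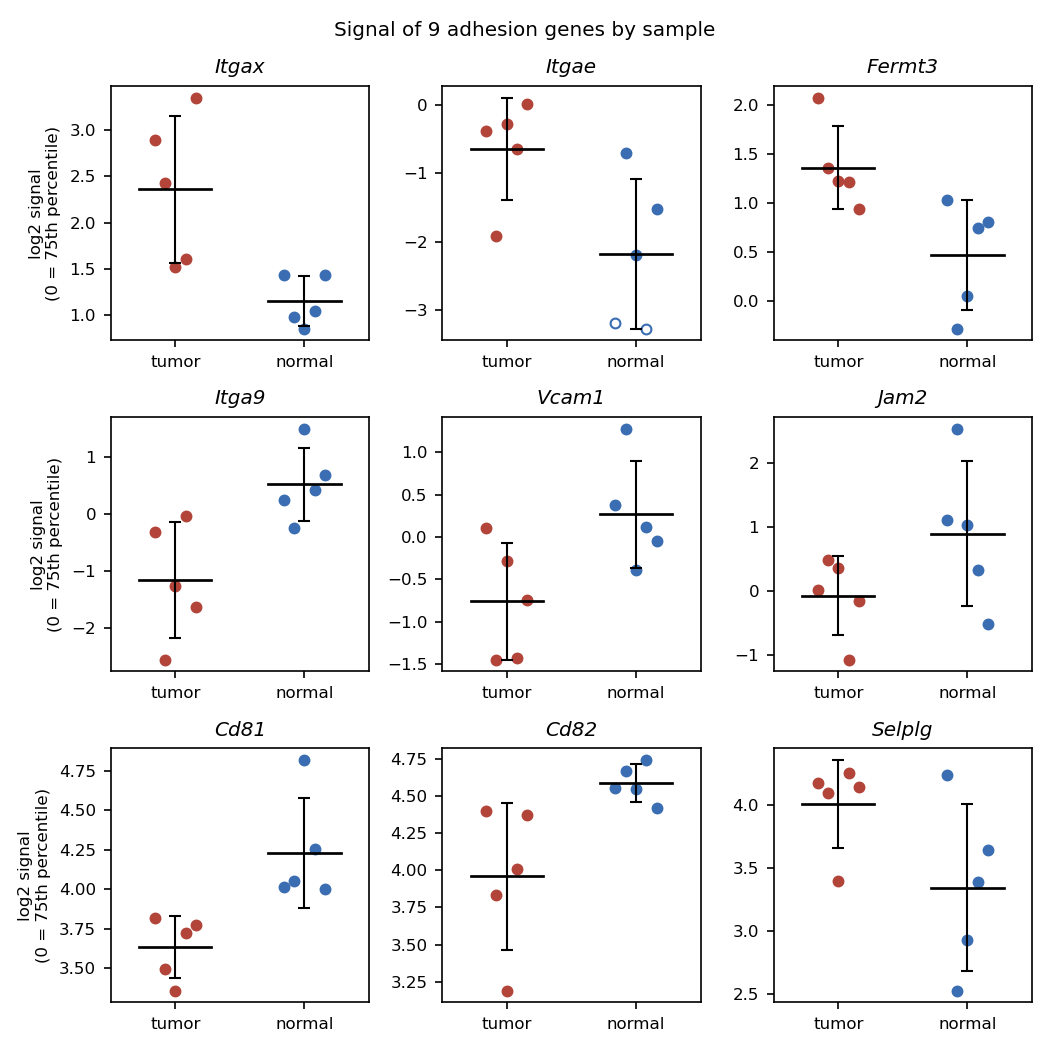
Log2 signal by sample of 9 adhesion genes, tumor left and normal right, with mean and SD (n = 5 each); open points are samples with no array well above background. The groups do not overlap for Itgax, Cd81 and Cd82, and 1 or more samples cross over for each of the other 6.

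Selplg encodes PSGL-1, the main selectin ligand of leukocytes. It read 4.17, 4.10, 3.40, 4.25 and 4.14 in tumor samples, against 4.24, 2.53, 2.93, 3.39 and 3.64 in normal samples. Tumor replicate 3 lay among the normal samples, and normal replicate 1 among the tumor ones. The difference was 0.67 ± 0.33 (SE), adjusted p = 0.432, and the second probe gave 0.43 ± 0.36.

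By its brightest probe Cd44, the hyaluronan receptor, was among the most even genes, with an interval of -0.49 to 0.37. It lay between 4.46 and 4.91 in tumor and between 4.41 and 4.95 in normal. Cd34, a sialomucin of endothelium and progenitor cells, differed by -0.37 ± 0.60, and by 0.07 without normal replicates 2 and 3. Selp, the selectin of platelets and endothelium, differed by 0.20 ± 0.80, with tumor replicates 4 and 6 at -4.65. Its probe was well above background on 4 tumor and 5 normal arrays, and on neither of tumor replicates 4 and 6. Leaving out 1 sample moved the difference of Selp between -0.12 and 0.82, the higher value without tumor replicates 4 and 6.

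By their brightest probes, the remaining integrin chains differed by less than their spread. Itga6, a laminin receptor chain, read 1.33, 1.83, 2.39, 1.69 and 2.16 in tumor samples, against 1.98, 2.92, 2.75, 2.21 and 1.43 in normal samples, a difference of -0.38 ± 0.33. Itgav, the chain of vitronectin receptors, read -0.12, 0.26, -0.08, 0.21 and -0.94 in tumor samples, against 0.32, 0.58, 0.57, 0.75 and -0.58 in normal samples. In both genes, normal replicate 6 was the lowest normal sample and the groups overlapped. Itgav differed by -0.46 ± 0.32 by its brightest probe and by -1.34 ± 0.65 by the other, adjusted p = 0.575 and, over probes, 0.422.

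Itga5, the fibronectin receptor chain, differed by -0.13 ± 0.35, and Itgb1 by -0.23 ± 0.22. Itgb5, which pairs with Itgav, differed by 0.12 ± 0.30. Itgb4, the partner of Itga6 in hemidesmosomes, differed by -0.63 ± 0.49. Itga3, a laminin receptor chain, differed by -0.13 ± 0.53.

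Itga2b and Itgb3 form the fibrinogen receptor of platelets, and Itgb3 also pairs with Itgav. They differed by 0.48 ± 0.52 and -0.27 ± 0.66. Itga2b was well above background on 6 tumor and 4 normal arrays, and on neither of normal replicates 2 and 3. The 11 platelet markers made up 0.00655% to 0.0224% of the signal on tumor arrays and 0.0133% to 0.0488% on normal arrays, Ppbp being above background on none. Pf4 was the largest part of that sum, with means of 3.17 in tumor and 5.11 in normal. Of 9 tested, 8 were lower in tumor and 1 was higher. None passed limma's test, 2 of the lower having an unadjusted p under 0.05, and the median difference was -0.35. The part of platelet RNA in these genes and in Selp was not tested.

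The 7 genes below the detection rule were integrin chains. Itga8 was well above background on 0 arrays, and Itgb6 on 0 by its brightest probe and on 1 tumor array by the other. Itga1, a collagen receptor chain, was detected on 1 tumor array, Itga2 on 2 arrays of either group, Itga7 on 2 normal arrays, Itgad on 1 normal array and Itgb8 on 1 array of either group. Their levels lie near background, and no fold is given.

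The probes of a gene mostly agreed in sign. Of 16 genes with more than 1 probe kept, 12 had one sign throughout and 4 did not: Cd44, Cd47, Itgam and Vcl. When all 22448 kept probes were fitted singly, 186 passed the adjusted p and none of the 56 probes of these adhesion genes was among them.

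**Figure D4:**
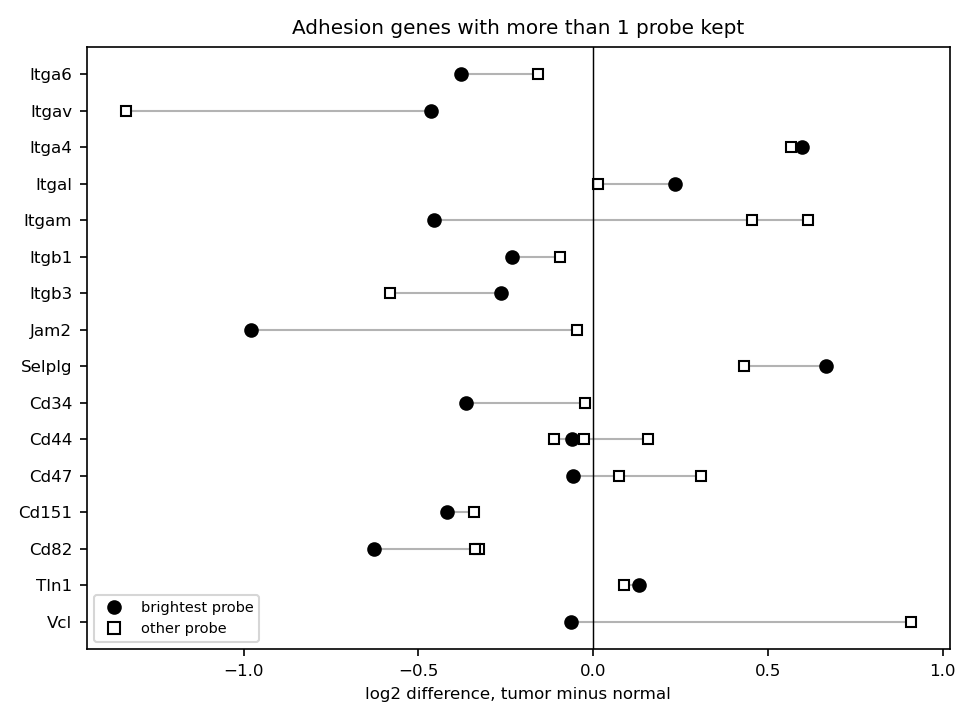
Log2 difference, tumor minus normal, by probe for the 16 adhesion genes with more than 1 probe kept; filled circles are brightest probes and open squares the others. The probes of Itgam, Cd44, Cd47 and Vcl fall on both sides of 0, and those of Itgav and Jam2 differ in size.

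Other genes of the pathway were taken from lists drawn up with earlier results known. Of 28 tested genes of integrin activation and signalling, none passed limma's test in either direction. At an unadjusted p under 0.05 there were 3 higher and 1 lower, against 6.69% and 6.25% of all genes. Above 0 were 17 and below 0 were 11, against 49.7% of all genes above 0, and the median difference was 0.20. Of 19 matrix ligands of integrins, none passed in either direction. At an unadjusted p under 0.05 there were 2 higher and 1 lower, beside the same shares over all genes. The median of the ligands was -0.0032.

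Fgr, a Src-family kinase downstream of leukocyte integrins, missed the threshold narrowly. It read -0.14, 0.24, -0.33, -0.74 and 0.56 in tumor samples, against -1.62, -2.69, -2.04, -1.83 and -0.99 in normal samples, without overlap. The difference was 1.75 ± 0.35 (SE), limma adjusted p = 0.0502, and 12 of 25 alternative analyses put it under 0.05. Among the 25 is the fit that changed only the probes of Itgam. The Fgr probe was well above background on 6 tumor arrays but only 4 normal arrays, so the size of this difference is uncertain. Neither array of normal replicates 2 and 3, at -2.69, was among the 4. Outside single slides and left-out samples, the alternatives put the difference between 1.03 and 1.78.

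Parvg, the parvin of blood cells, was higher by 1.18 ± 0.27 (adjusted p = 0.0806), and Tln2, the second talin, was lower, at -0.94 ± 0.28 (adjusted p = 0.186). Emb, or embigin, was higher by 1.45 ± 0.31 (adjusted p = 0.0655), and Cd36, a thrombospondin receptor, was lower, at -1.95 ± 0.63 (adjusted p = 0.222). The groups did not overlap for Parvg, Tln2 and Emb, which were named for their small p. Over all genes tested, 3.44% had no overlap.

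Among the ligands, Fn1, or fibronectin, read 5.25, 5.42, 5.32, 5.15 and 5.05 in tumor samples, against 4.60, 4.67, 4.19, 4.03 and 4.27 in normal samples. All tumor samples were above all normal ones, and the difference was 0.89 ± 0.20 (SE), adjusted p = 0.0856. Its receptor chains Itga5 and Itgb1, given above, differed by less than their standard error or close to it. Thbs1, or thrombospondin-1, was higher by 2.68 ± 0.77 (adjusted p = 0.167). Its probe was well above background on 6 tumor arrays but only 3 normal arrays, so the size of this difference is uncertain. The sample from tumor replicates 4 and 6, at -2.98, lay within the normal range of -3.90 to -1.85. Vtn, or vitronectin, was well above background on 0 tumor arrays, so only a bound can be given, at least 1.88-fold lower in tumor (adjusted p = 0.296). The normal samples ran from -5.88 to 0.32, and leaving out 1 of them moved the bound between 1.12, without normal replicates 2 and 3, and 3.28, without normal replicate 6. The bound sets the normal mean against the tumor mean of, per array, the higher of the probe's signal and the faintest signal among probes well above background.

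**Figure D5:**
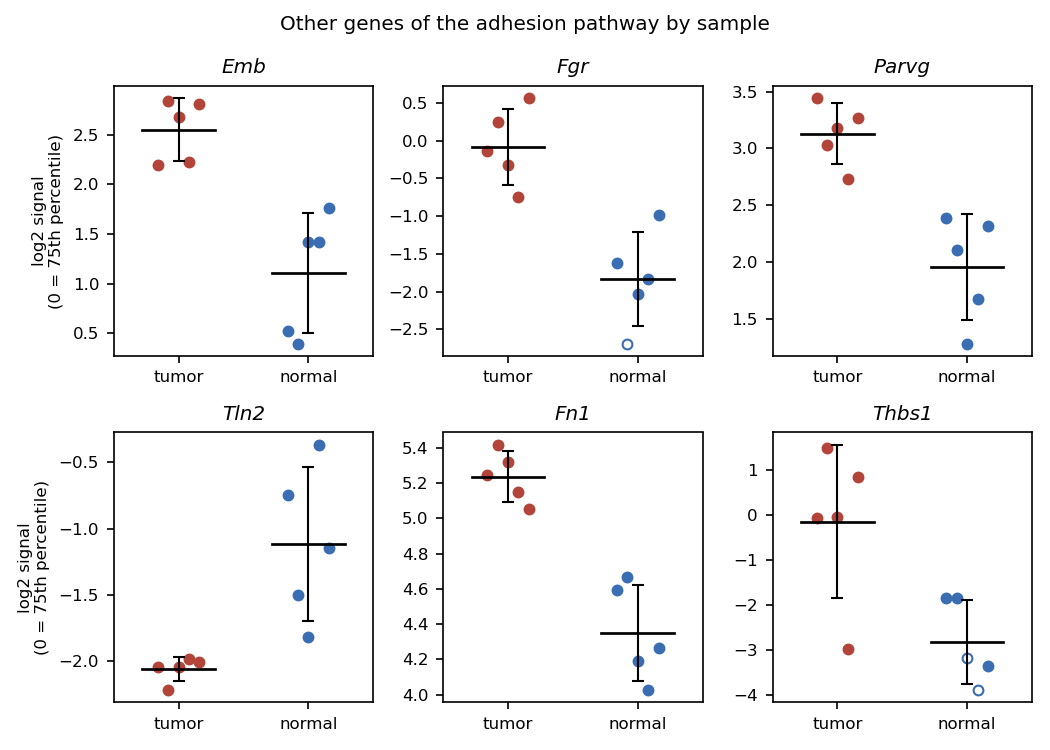
Log2 signal by sample of 6 other genes of the adhesion pathway, tumor left and normal right, with mean and SD (n = 5 each); open points are samples with no array well above background. No sample overlaps between the groups except in the Thbs1 panel, and none of the 6 passed the test.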

How the data were processed

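RNA of sorted pancreas macrophages was amplified as cDNA, labelled with Cy5 and read on single-color Agilent arrays, per the labels' protocols; amplification can alter the balance between transcripts. Per the file headers, Feature Extraction 11.5.1.1 made the deposited intensity values, processed signals with background removed. The authors also deposited a log2 table, which equalled quantile-normalized processed signals (lowest r 0.9999) and served as an alternative.

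Spots flagged as outliers (0.401%) were dropped and none was saturated. The log2 processed signal was averaged per probe and the array's 75th percentile subtracted. A table of RefSeq genes (GRCm38.p6) supplied names, not positions: 28025 of 39429 probes matched it by accession, and the rest were named by symbol or synonym or kept the name in the file. Each gene was taken from its brightest probe by mean signal, which gave 16388 genes to test. The test was limma's (version 3.58.1 under R 4.3.3, lmFit followed by eBayes), two-sided, with Benjamini-Hochberg adjustment over all genes and 5 samples per group; the fit was tested on simulated data. The number of arrays limits the precision. The 3 slides, scanned separately, each carried 2 tumor and 2 normal arrays.

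The genes and lists were chosen with earlier results of these data known. By rule, values of every sample are given for genes past the threshold, genes whose groups did not overlap, and the 3 largest differences in each direction; the gene with the smallest p in each role group is named with its values, and in each pathway list the genes past the threshold and the 3 with the smallest p. Itgam was added because its probes disagreed. Alternatives changed the background correction, scaling, dim-probe filter, probe choice, variance model, slides and samples; 2, on single probes, were added after seeing the data. A result among other adhesion receptors is not reported here.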

Additional observations from a re-analysis of the deposited data

Results flagged for a closer look

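Of 84 sets of 5 samples examined, 4 held a sample that stood apart from the rest of its group by Dixon's gap test, and chance gives such a gap in about 1 of 20. Selplg was at 3.40 in tumor replicate 3, with the nearest tumor sample at 4.10. Selp was at -4.65 in tumor replicates 4 and 6, where neither array read it well above background, with the nearest at -1.78. The others are genes below the detection rule: Itgb8 at -2.63 in tumor replicate 5 (nearest -5.69) and Itga7 at -1.29 in normal replicates 2 and 3 (nearest -4.21).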

How the results depend on the processing

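None of the 35 adhesion genes passed the adjusted p in any of the 26 alternatives, with 0 to 0 calls when 1 sample was left out; the lowest adjusted p was 0.0878, for Vcam1 with the 12 arrays as separate samples. The 136 calls over all genes became 217 with normexp background correction, 237 with a trend and robust variance model, 460 with the 12 arrays as separate samples, and 63 (without normal replicate 5) to 198 (without normal replicate 6) when 1 sample was left out, with 80 and 74 without tumor replicates 1 and 2, and 85 and 89 without normal replicates 1 and 4. Within slides 1, 2 and 3 alone, with fewer samples, 0, 0 and 0 genes passed limma's test, against 1586, 1570 and 946 at an unadjusted p under 0.05. The median of the adhesion genes was -0.39 on slide 1, -0.48 on slide 2 and 0.11 on slide 3, and ranged from -0.14 to 0.02 without 1 sample. Slides 1 and 2 share a normal sample and slides 2 and 3 a tumor sample, so these fits are not independent. On slide 3 alone Itga6 was 0.18 and Itgam 0.052; Itgam was 0.20 from the mean of its kept probes and 0.53 from its 2 other probes, and -0.03 in the authors' table. The cause was not tested. Every change of sign was counted. Outside the fits that leave out a sample, 34 of 554 values turned, 21 of them within single slides, in 17 of the 35 genes. The 554 values include the trend and robust variance model, which leaves every difference as in the main fit. They also include the fit of Itgam from its 2 other probes, which changes the difference of no other gene. With 1 sample left out, 23 of 350 values turned, in 11 genes. With terms for slide and sample name, 149 genes passed. No paired analysis was possible because replicate numbers were given in accession order and only name samples.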
